A study of Mus musculus with 4 samples.

Results

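The clustered protocadherins are neuronal cell surface proteins encoded by 3 neighbouring gene arrays, alpha (Pcdha), beta (Pcdhb) and gamma (Pcdhg), on mouse chromosome 18. They were examined here for Fos signal in colonic epithelium. Members were the protein-coding genes on chromosome 18 of the mm10 (GRCm38.p6) gene table with symbols beginning Pcdha, Pcdhb or Pcdhg. There were 57 members, 14 Pcdha, 22 Pcdhb and 21 Pcdhg, of 21631 protein-coding genes in the table, with chromosome Y left out. The pseudogene Pcdhgb8 and the read-through gene models Gm37013, Gm38666 and Gm38667, which run from the Pcdha array to the end of the Pcdhg array, were not members.

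Fos, a subunit of the transcription factor AP-1, was profiled by CUT&Tag, in which an antibody tethers the transposase Tn5 to chromatin, so that DNA near the protein is fragmented and sequenced. The 4 libraries came from the scraped colonic mucosa of wild-type mice, 2 of them healthy controls. The tissue is labelled colonic epithelium, and each colon was kept for 30 min in a buffer with 4 mM EDTA and 10% serum before scraping. The other 2 were from mice recovered from colitis, after 3 cycles of 1 to 1.5% dextran sodium sulfate (DSS) in the drinking water, 7 days on and 10 days off, and were taken 22 days after the last cycle. All 4 carried the same batch label. The data analysed were a single peak list for the whole series, with no value per library, so healthy and recovered tissue could not be compared at these genes, no value has a replicate error and the depth per library is unknown. No untargeted control library was used here, so the part of the signal due to Tn5 cutting in open chromatin was not measured.

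Each Pcdha or Pcdhg gene has a variable first exon with a promoter of its own, which is spliced to constant exons shared by the whole array, whereas Pcdhb genes lack constant exons. A neuron expresses a few of the variable exons, chosen largely at random, and the resulting set of proteins lets its branches tell self from non-self. Choice of a promoter involves the DNA-binding protein CTCF, cohesin and DNA methylation. The last promoters of the Pcdha and Pcdhg arrays, Pcdhac1, Pcdhac2, Pcdhgc3, Pcdhgc4 and Pcdhgc5, are known as C type and are less subject to random choice. In the gene table the 57 members had 57 distinct lower boundaries but 30 distinct upper boundaries, since the Pcdha and Pcdhg genes end together at the constant exons. The lower boundary is therefore where a member's variable exon lies. The table gives no strand and no exons, and a boundary below means either end of a gene.

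Fos summits in the protocadherin arrays were concentrated in their last 35.5 kb, from Pcdhgc3 to the shared end of the Pcdhg genes. That stretch held 19 of the 23 summits found in the whole span of 911.6 kb (chromosome 18, 36930285 to 37841873). The Pcdhb array held none and the Pcdha array 1. With the sequence within 50 kb of any member included, and each summit counted once, the locus had 28 summits in 17 regions, 8 within 1 kb of a member boundary, 13 elsewhere inside a member and 7 in the flanks. With each region counted once, 8 of the 12 regions of the span lay from Pcdhgc3 on. With a −log10 q of at least 10, that stretch held 11 summits of 13 in the span and 17 in the locus.

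**Figure D1:**
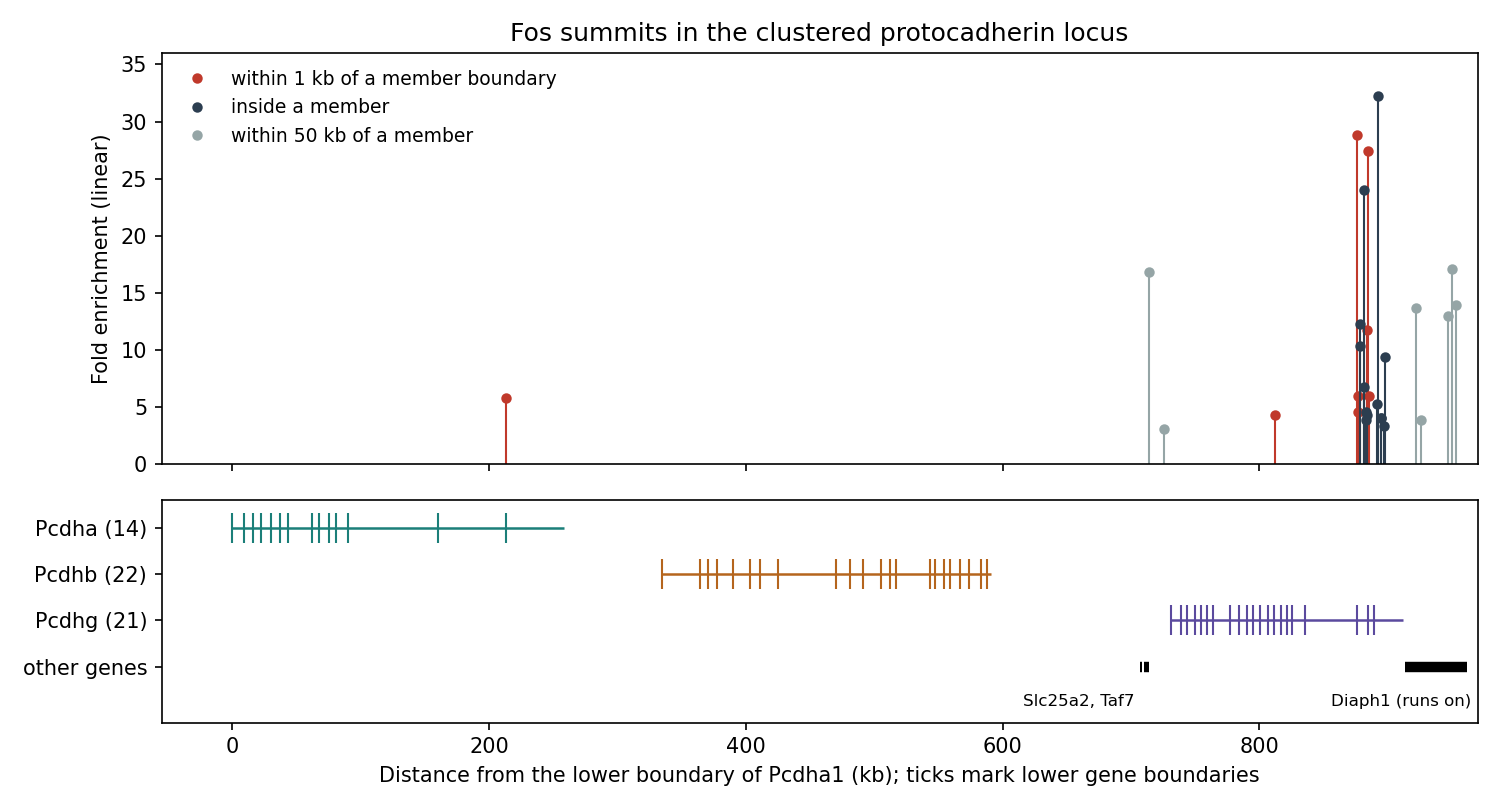
Fold enrichment of each of the 28 Fos summits (vertical lines with points, linear scale) against distance in kb from the lower boundary of Pcdha1, with the 3 arrays and the genes Slc25a2, Taf7 and Diaph1 below, each tick marking the lower boundary of a member. The points crowd over the last members of the Pcdhg array, and a single point lies over the Pcdha array and none over the Pcdhb array.

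Of the 57 members, 4 had a summit no more than 1 kb from either end of the gene (7.02%, 95% Wilson interval 2.76 to 16.7), called a boundary summit below, while 62.0% of all protein-coding genes did (13405 of 21631). Among the other 454 protein-coding genes of chromosome 18 the share was 67.2% (62.7 to 71.3). The share of members lay far below both. The 4 members were Pcdhac2, Pcdhgb6, Pcdhgc3 and Pcdhgc4. By array, boundary summits were found at 1 of 14 Pcdha genes, 0 of 22 Pcdhb genes and 3 of 21 Pcdhg genes. By promoter type, they were found at 3 of the 5 C-type genes (23.1 to 88.2%) and at 1 of the other 52 (1.92%, 0.34 to 10.1). These shares were not tested against each other, because members share ends and neighbouring windows and the list has no replicates. The intervals cover counting error only and treat genes as independent.

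Pcdhgc3, a C-type isoform also made outside the nervous system, carried a summit 5 bp inside its lower boundary, at position 37806415. Fold enrichment there, the authors' value, was 28.9, and the pileup, the number of overlapping fragments, was 119 (95% Poisson interval 99 to 142). It exceeded the fold of 86.3% of all summits in the list. The same region, 37805933 to 37807401, held weaker summits at 531 bp and 810 bp inside the gene with pileups of 18 and 24 fragments. A second region followed, with pileups of 50 and 42 fragments at 2213 bp and 2618 bp. The summit at the boundary was thus the strongest in the first kilobases of the gene, and its interval did not overlap those of the others there.

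Pcdhgc4, the isoform known to be needed for the survival of many neurons, had its strongest summit 284 bp below its lower boundary, where 113 fragments overlapped (93 to 136) and the fold was 27.4. Its region, 37812916 to 37815934, was the widest of the locus at 3019 bp and held 6 summits. Of these, 3 lay within 1 kb of the boundary, the others having pileups of 48 and 24 fragments. The 3 more distant summits were weak, with 15 to 18 fragments. Between the Pcdhgc3 and Pcdhgc4 regions, a summit at 37812165 reached a fold of 24.1 and 99 fragments (80 to 121), 2914 bp below Pcdhgc4. Without regions wider than 3000 bp, the whole Pcdhgc4 region dropped out and the gene lost its boundary summits.

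Pcdhgc5, the last variable exon of the array, had no summit within 1 kb. Its nearest, 2190 bp inside the gene, had 21 fragments. The strongest summit of all 28 lay in the same region, at 37822747 and 3201 bp inside Pcdhgc5, with a fold of 32.2 and 133 fragments (111 to 158). All 21 Pcdhg spans covered it, so it belongs to no single member by position. Its interval overlapped those of the strongest summits at Pcdhgc3 and Pcdhgc4 and of the summit between them. Overlap of intervals is not a test of a difference, and the order of these 4 was not tested. The remaining summits of the Pcdhgc5 interval had 13 to 38 fragments, and those of 13 and 38 also lay within the lncRNA gene Gm29994. The last summit inside the array was at 37828089, and the next, at 37852417, lay beyond its end, so none lay at the shared upper boundary.

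Counted by interval, the 8.67 kb from Pcdhgc3 to Pcdhgc4 held 12 summits in 4 regions, which covered 59.1% of its bases. The 4.47 kb from Pcdhgc4 to Pcdhgc5 held 1 summit, and the 22.3 kb from Pcdhgc5 to the end held 6. Over the whole stretch from Pcdhgc3 the regions covered 25.9% of bases, against 0.247% of the 876.1 kb before it. The median fold of its 19 summits, 6.01, was near the 6.73 of all 178981 summits. The stretch was therefore dense in summits while most of them were of ordinary or low strength.

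**Figure D2:**
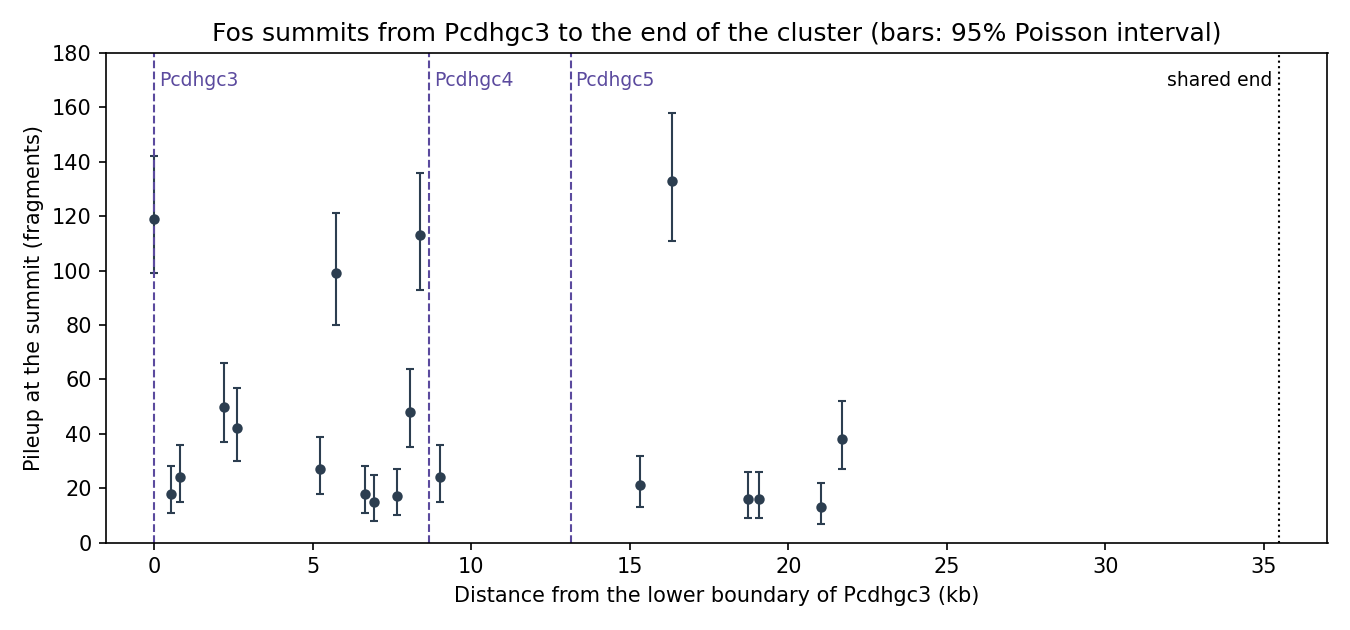
Pileup in fragments of each summit from Pcdhgc3 to the shared end of the Pcdhg genes, against distance in kb from the lower boundary of Pcdhgc3; bars are 95% Poisson intervals, dashed lines mark the lower boundaries of the 3 C-type genes and the dotted line the shared end. The 4 strongest summits, of 99 to 133 fragments, have overlapping intervals, and none lies in the last part of the array.

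In the remainder of the Pcdhg array, 144.6 kb that hold the A and B type promoters, a single summit was called. It lay 63 bp inside Pcdhgb6, with a fold of 4.33 and 17 fragments (10 to 27), a strength exceeded by most summits of the list. The call of Pcdhgb6 ended when summits with a −log10 q under 10 were left out, since its own value was 6.34. The other A and B type genes had their nearest summit between 4.86 kb (Pcdhga10) and 38.7 kb (Pcdhga5) from the lower boundary. The first gene, Pcdhga1, was 6.07 kb from a summit of 12 fragments, the weakest of the locus.

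Over the Pcdha array, 258.6 kb long, the only summit lay 431 bp below Pcdhac2, a C-type isoform known from serotonergic neurons. Its pileup was 23 fragments (15 to 35), its fold 5.77, and its region, 37143127 to 37143348, was 222 bp wide. The other C-type promoter of the array, that of Pcdhac1, was 53.1 kb from that summit. For the 12 genes Pcdha1 to Pcdha12 the nearest summit was 123 to 169 kb from the lower boundary. No summit lay in the 50 kb below Pcdha1 either. The closest in that direction was at 36803130, with a fold of 8.9 and 36 fragments. It lay near Zmat2, the next protein-coding gene, whose boundary fold of 43.3 came from another summit.

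No summit was called in the Pcdhb array, 256.4 kb from Pcdhb1 to Pcdhb22, nor in the 76.1 kb between it and the Pcdha array. The lower boundaries of the Pcdhb genes had a median distance of 169 kb to the nearest summit, with a range of 122 to 243 kb, which overlaps that of Pcdha1 to Pcdha12. The 5 members farthest from a summit were Pcdhb9 (243 kb), Pcdhb10 (233 kb), Pcdhb11 (223 kb), Pcdhb8 (212 kb) and Pcdhb12 (209 kb). The median over all 57 members was 132 kb. Over all protein-coding genes the median was 2.94 kb (interquartile range 0.169 to 19.2), and 9.34% of genes had their lower boundary farther from a summit than the median member. A lower boundary is the start or the end of transcription for genes in general, so these distances compare positions, not promoters.

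**Figure D3:**
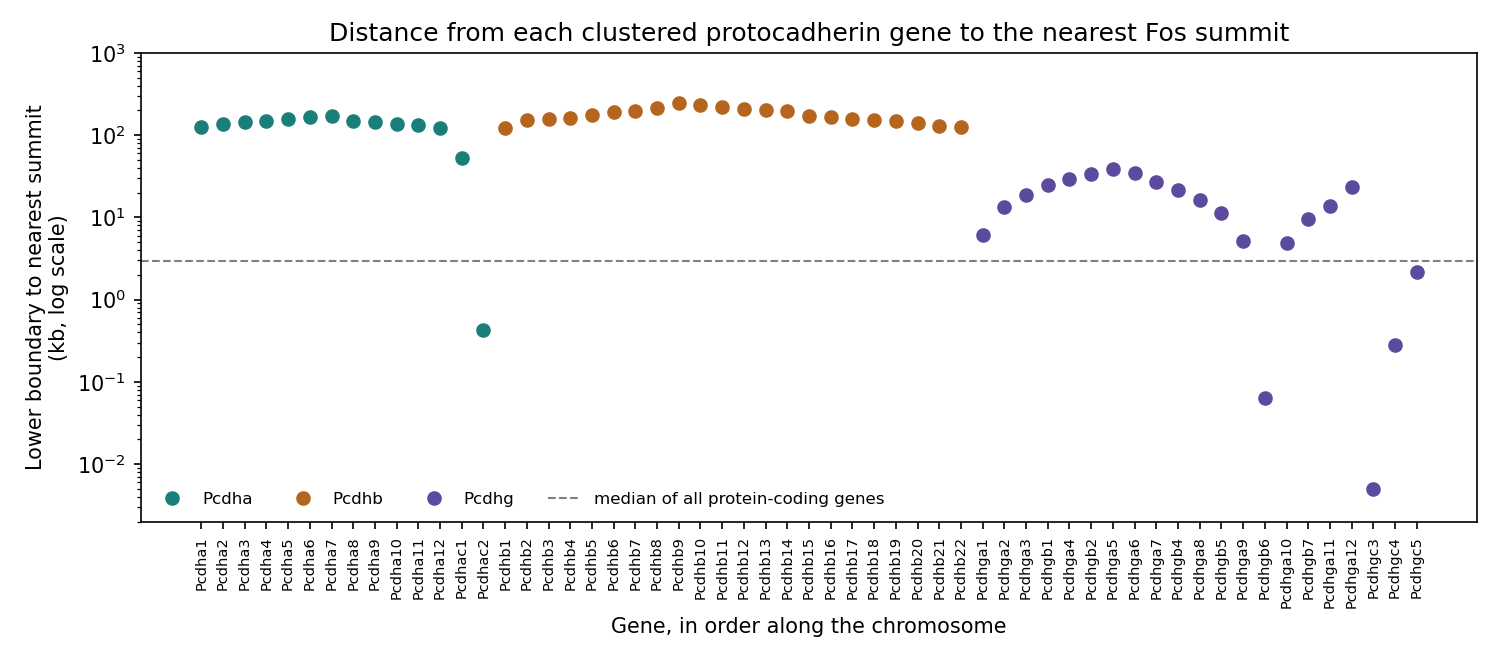
Distance in kb (log scale) from the lower boundary of each of the 57 members, in chromosomal order, to the nearest Fos summit, with the median of all protein-coding genes, 2.94 kb, as a dashed line. Only Pcdhac2, Pcdhgb6, Pcdhgc3, Pcdhgc4 and Pcdhgc5 lie below the line, and all Pcdhb genes lie above 100 kb.

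The stretch without summits from 37143247, at Pcdhac2, to 37644354 was 501 kb long and held the lower boundaries of 23 members and 25 protein-coding genes in all. Of 176578 gaps between neighbouring summits on the autosomes, 530 (0.3%) were at least as long, and the median was 1326 bp. Counted by lower gene boundaries, 17 autosomal gaps held more, and on chromosome 18 none did. The preceding gap, from 36803130 to 37143247, was 340 kb long with 13 member boundaries. Together both gaps take in the Pcdha and Pcdhb arrays apart from the Pcdhac2 summit. Exons of neighbouring protocadherins resemble each other in sequence. How reads that match several places were treated was not given in the sources used here, and their part in these empty stretches was not tested.

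The surroundings were dense in signal. The 1 Mb below Pcdha1 held 234 summits and the 1 Mb above the Pcdhg array 200, with folds up to 208.3 and 230.2. The span of the arrays had 25.2 summits per Mb, chromosome 18 had 66.6 and the 19 autosomes 73.5. With each region counted once these were 13.2, 40.8 and 44.4, and with a −log10 q of at least 10 they were 14.3, 39.9 and 43.6. Among 2394 windows of 1 Mb tiled over the autosomes, 34.5% had fewer summits than the density of the span. Among the 114 windows with at least 30 lower gene boundaries 12.3% did, and their median was 207. The span itself held 62 such boundaries. The span as a whole was thus low for its gene content, but not extreme among windows of the genome. Its density averages unlike parts, 536 summits per Mb from Pcdhgc3 to the end and 4.57 in the 876.1 kb before it. These parts were not set against the windows.

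Genes that are no member but lie among or beside the arrays differed in signal. Taf7, a subunit of the general transcription factor TFIID that lies between the Pcdhb and Pcdhg arrays, had a summit 150 bp above its upper boundary with a fold of 16.8 and 69 fragments (54 to 87). Its neighbour Slc25a2, a mitochondrial ornithine carrier, had none within 1 kb, the nearest being 5631 bp away. Diaph1, a formin that nucleates actin filaments, has its lower boundary 1728 bp above the Pcdhg array and held 17 summits. No summit lay within 1 kb of that lower boundary. Its boundary fold of 79.1 was at its upper boundary, 37935622, which lies beyond the 50 kb flank of the arrays. The 5 summits in the upper flank of the arrays, of 15 to 70 fragments, all lay inside Diaph1. No boundary of the 3 read-through models, which share the arrays' upper end, had a summit.

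Protocadherins outside the arrays, which have promoters of their own and no shared constant exons, had a boundary summit at 5 of 12 genes (41.7%, 19.3 to 68.0), an interval that includes the 62.0% of all genes. With a −log10 q of at least 10 the count was 3. The highest boundary folds were 41.1 at Pcdh17, 29.3 at Pcdh1, which is also made in epithelia, and 9.86 at Pcdh19, the X-linked epilepsy gene. Pcdh18 and Pcdh8 had folds of 4.57 and 3.13. Pcdh7, Pcdh9, Pcdh10, Pcdh11x, Pcdh12, Pcdh15 and Pcdh20 had none. The strongest summit at Pcdh17, at 84443553 with 170 fragments (145 to 198), fell inside its RefSeq promoter window, chr14:84443313-84443612 (GRCm38.p6, plus strand), which runs from 250 bp before the start of transcription to 50 bp after it. Its sequence is shown because it is the protocadherin promoter outside the arrays with the strongest signal, and the 21 bases centred on the summit are in capitals.
Pcdh17 promoter: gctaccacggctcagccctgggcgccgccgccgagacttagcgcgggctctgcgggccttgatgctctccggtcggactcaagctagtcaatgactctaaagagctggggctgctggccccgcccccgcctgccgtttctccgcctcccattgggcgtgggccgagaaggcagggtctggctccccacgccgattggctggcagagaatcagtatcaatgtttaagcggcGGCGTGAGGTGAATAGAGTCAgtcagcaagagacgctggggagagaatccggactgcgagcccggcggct
A broad form of the AP-1 motif, TGANTCA with any base at N, reads the same on both strands. It was absent from the 10 promoter windows found for 9 of the 12 genes, Pcdh17 included. Of all 32851 windows available, for 27025 genes, 7.81% held it. At that share, 10 windows are too few for the absence to set these genes apart. Only exact matches inside the windows were counted. The members' promoters were not analysed here.

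Genes for factors known to act on the protocadherin arrays mostly carried boundary summits, 16 of 21 (76.2%, 54.9 to 89.4) beside the 62.0% of all genes. The highest folds were 172.7 at Zfp143, a zinc finger protein found with CTCF at looped promoters, 73.1 at Smc3, a core subunit of cohesin, and 58.0 at Ehmt2, the histone H3K9 methyltransferase G9a. Ctcf itself had a fold of 54.1 with 224 fragments. The 5 genes without a boundary summit were Rad21 and Stag1 of cohesin, the cohesin loader Nipbl, and the DNA methyltransferases Dnmt1 and Dnmt3a. All 5 had summits farther inside the gene, from 4 in Rad21 to 18 in Dnmt3a. Partners of the protocadherin cytoplasmic domains had one at 9 of 11 genes (81.8%, 52.3 to 94.9), with folds of 96.0 at Ptk2 and 85.4 at Ptk2b, the focal adhesion kinases FAK and PYK2, and 74.8 at Cyfip1 of the WAVE actin regulatory complex. Abi2 and Cyfip2 of that complex had no boundary summit but 4 summits each inside the gene. Unlike the arrays, these gene sets had shares above that of all genes, with intervals that include it.

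Boundary summits were also counted at marker genes of cell types. They show Fos signal near a gene, and neither its expression nor the share of a cell type was measured. Over all protein-coding genes the share with a boundary summit was 62.0%. All 10 epithelial marker genes had one, with a median highest fold of 81.5 (range 18.8 to 173). Enteric neuron markers had one at 7 of 16 genes (43.8%, 23.1 to 66.8), with folds of 3.61 to 16.4, led by Ret, Nos1 and Snap25, and Elavl3, Elavl4, Chat and Stmn2 were among those without. Enteroendocrine markers had one at 5 of 8 (62.5%, near that of all genes) with folds up to 6.49, at Chgb, and not at Chga, Neurod1 or Scg3. Immune markers had one at 1 of 8 (Itgam, 104), and stromal and endothelial markers at 2 of 10, Col1a1 and Pdgfra, with folds of 6.98 and 4.33. The part of neuronal or endocrine cells in the signal at Pcdhgc3 to Pcdhgc5 was not tested.

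Other tandem gene families differed from the protocadherin arrays in opposite ways. Boundary summits were present at 35 of 39 Hox genes (89.7%, 76.4 to 95.9) and at 25 of 53 keratin genes (47.2%, 34.4 to 60.3). Among 1110 olfactory receptor genes, which are also expressed by random choice in neurons, 18 had one (1.62%, 1.03 to 2.55). The share of the 57 protocadherins, 7.02%, lay between those of keratins and olfactory receptors. It rests on 4 members, and the lower end of its interval, 2.76%, was close to the 2.55% that ends the olfactory receptor interval. These intervals treat genes as independent, which neighbours in an array are not. These differences were not tested.

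**Figure D4:**
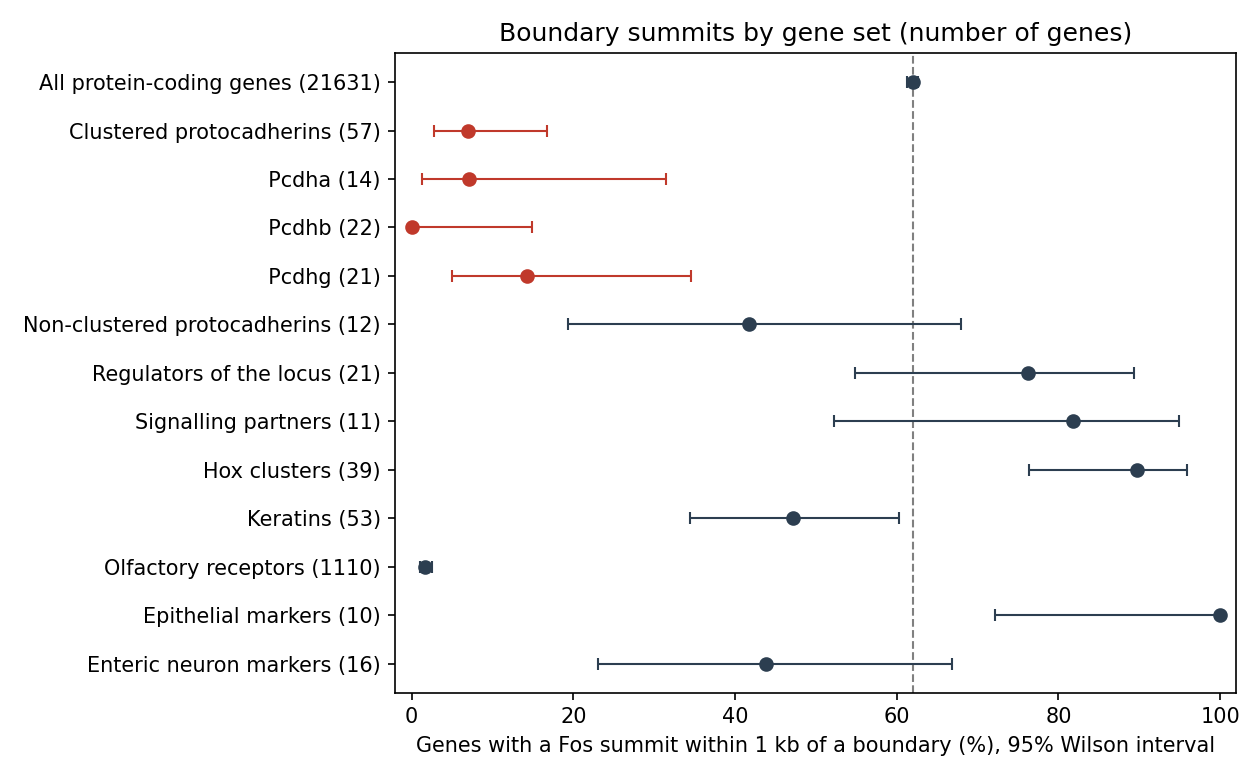
Percent of genes with a Fos summit within 1 kb of a boundary for each gene set, with the number of genes in parentheses and 95% Wilson intervals as bars; the dashed line is the 62.0% of all protein-coding genes. The clustered protocadherins and their arrays (red) lie left of the line, from 0 of 22 Pcdhb genes to 3 of 21 Pcdhg genes.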

How the data were processed

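CUT&Tag for Fos was made from 4 libraries of scraped colonic mucosa. Per the submitters' processing notes, the tools were Bowtie2 and MACS2 and the build mm10, with no version named. The authors deposited 1 summit list for all libraries, and the way the libraries were combined was not stated in the labels. The deposited score is the integer part of 10 times −log10 q, the deposited fold is a linear ratio to the caller's background, and the deposited −log10 p-value and q-value are the caller's. The lowest −log10 q was 1.80.

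All folds were whole multiples of 0.2405, which corresponds to a background of 3.16 fragments, and pileups were computed from this. A Poisson −log10 p recomputed from them was finite at 167414 of the 178981 summits, and the rest could not be checked. It matched the deposited value within 0.01 at 100% of those 167414, with the better-matching form of the Poisson tail. Summit positions are 1-based. Genes came from the RefSeq table of GRCm38.p6. Summits were assigned by distance, within 1 kb of a boundary, inside, or within 50 kb, using Python 3.11.15 with pandas 2.3.3 and SciPy 1.17.1. Intervals are exact 95% Poisson for pileups and 95% Wilson for shares. They cover counting error only, since PCR copies are not independent molecules. Assignment and pileup recovery were tested on simulated data. No hypothesis test was made, because the list has no replicates.

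The members and lists were chosen with earlier results of these data known. The rule was to name members with a boundary summit, the 5 farthest from any summit and protein-coding neighbours within 50 kb. In other lists it took the 3 highest boundary folds and those without a summit where these were 5 or fewer. It was not kept for the epithelial markers or the Hox, keratin and olfactory receptor genes, of which none is named. Among enteroendocrine genes with a boundary summit only Chgb is named. Ctcf, Zmat2, the other non-clustered protocadherins, and the markers below the 3 highest or without a summit were named after their values were seen. Alternatives were stricter −log10 q, 1 summit per region, no region wider than 3000 bp, and other boundary and flank distances. Another marker list is not reported here.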

Additional observations from a re-analysis of the deposited data

How the results depend on the processing

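Over 38 recomputed values, 31 stayed within 1.5 times the main one. With a −log10 q of at least 10, the locus held 17 summits, the stretch from Pcdhgc3 to the end 11, the span 14.26 summits per Mb, and 3 non-clustered protocadherins had a boundary summit. With 1 summit per region these were 17, 8 and 13.16, fewer by construction, and 5 protocadherins. Boundary summits were found at 3 or 4 members in every setting tried, always including Pcdhac2 and Pcdhgc3, while the share of all genes ran from 55.6 to 66.4%. Pcdhgb6 dropped out with a −log10 q of at least 10 and Pcdhgc4 without regions wider than 3000 bp. The values for partner genes, for the stretch from Pcdhgc3 and for the densities of chromosome 18 and the autosomes were added after seeing the data. No paired analysis was possible because the list has no column per library, and no library could be left out for the same reason. Summits under the caller's threshold are not listed, so weak signal in the Pcdha and Pcdhb arrays cannot be seen.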
